A study of Mus musculus with 8 samples.

Results

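The genes described here are 9 members of the Bcl2 family, which decide at the mitochondrion whether a cell lives or dies: Bcl2, Bcl2l1, Bcl2l11, Mcl1, Bax, Bak1, Bid, Bbc3 and Pmaip1. They were chosen by name, with earlier results of these data known. All 9 were found among the 13341 gene symbols of the deposited table. MRL/lpr mice, which develop lupus, gave CD44hi T cells at 14 weeks of age. These were sorted as CD4+ or CD8+ from kidney or spleen, so the 4 groups were kidney CD4+, kidney CD8+, spleen CD4+ and spleen CD8+ cells with 2 libraries each (n = 2 throughout, 8 libraries). All 4 groups share the MRL background and the lpr allele, a mutation of the death receptor gene Fas, so no comparison here contrasts lpr with an intact Fas gene. Nothing in the labels says how many mice gave each library or whether replicates came from separate mice, so p-values measure the spread between these libraries, which may be technical.

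In this family, pro-survival proteins such as BCL2, BCL-XL (from Bcl2l1) and MCL1 hold the effectors BAX and BAK in check. BH3-only proteins, named after the short domain they carry, oppose the survival proteins: BIM (from Bcl2l11), BID, PUMA (from Bbc3) and NOXA (from Pmaip1). When they win, BAX and BAK perforate the outer mitochondrial membrane, cytochrome c leaks out and caspases are activated. In T cells this route removes cells after an immune response and when cytokines run short, and BIM is its best known trigger there. It runs beside the Fas route, which the lpr mutation disables.

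A level below is the deposited normalised signal, that is, reads scaled by a single size factor in each library, where 1 read was worth 0.554 to 1.04. Libraries held 7477544 to 11169003 reads. Differences are on log2(level + 1), with the standard error (SE) and the Benjamini-Hochberg adjusted p of limma over the 10845 genes that reached a level of 10 in 2 or more libraries, and a gene was called below 0.05. Bak1 and Bbc3 stayed under that filter, so 7 of the 9 members were tested. The kidney CD4+ replicates were less alike than the other pairs (Pearson r of log2 levels across genes 0.772, against 0.883 to 0.958). Summed markers of CD4+ cells, 3 genes, lay between 1981 and 4712 in the CD4+ libraries and between 4.71 and 45.5 in the CD8+ ones. Those of CD8+ cells, 3 genes, summed to 28850 to 36740 in the CD8+ libraries and 801 to 1558 in the CD4+ ones. Those of T cells (6 of 6 genes read in every library) lay between 81690 and 117700.

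The 3 members with the clearest patterns are shown with the 250 bases before their transcription start, from RefSeq on GRCm38.p6. The strand is that of the gene, 5′ to 3′. Capitals mark matches on either strand to the FOXO element GTAAACA and to the GC box GGGCGG, which do not overlap each other there. The Bcl2 window is chr1:106714291-106714540 on the minus strand, that of Bcl2l11 chr2:128125788-128126037 on the plus strand (the first of its 2 listed starts) and that of Bid chr6:120916825-120917074 on the minus strand.
Bcl2: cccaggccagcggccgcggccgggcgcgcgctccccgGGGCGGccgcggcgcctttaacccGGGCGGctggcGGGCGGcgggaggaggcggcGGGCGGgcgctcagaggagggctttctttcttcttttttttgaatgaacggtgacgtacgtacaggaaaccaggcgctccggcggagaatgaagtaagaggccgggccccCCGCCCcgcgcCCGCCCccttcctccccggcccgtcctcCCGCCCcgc
Bcl2l11: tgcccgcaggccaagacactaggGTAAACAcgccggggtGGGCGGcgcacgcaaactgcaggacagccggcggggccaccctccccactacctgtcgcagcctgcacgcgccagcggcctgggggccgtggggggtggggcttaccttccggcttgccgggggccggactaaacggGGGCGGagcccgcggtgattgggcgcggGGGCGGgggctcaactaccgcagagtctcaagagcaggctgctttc
Bid: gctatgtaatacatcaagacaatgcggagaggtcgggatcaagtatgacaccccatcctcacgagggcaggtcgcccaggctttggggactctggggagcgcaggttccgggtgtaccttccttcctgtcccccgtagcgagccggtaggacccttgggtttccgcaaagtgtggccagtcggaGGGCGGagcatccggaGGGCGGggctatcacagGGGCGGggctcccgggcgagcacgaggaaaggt
The Bcl2 window held 7 GC boxes and no FOXO element, the Bcl2l11 window 3 GC boxes and 1 FOXO element that begins 227 bases before the start, and the Bid window 3 GC boxes and no FOXO element. The window of the second Bcl2l11 start, not shown, held 2 GC boxes and no FOXO element. Across 32851 listed promoters, 3.17% of such windows held the FOXO element, 32.7% a GC box and 6.02% the E-box CACGTG. The promoters of 8 members were searched, and that of Pmaip1 was left out. Of these 8, 2 had a FOXO match (Bcl2l11 and, at the second of its listed starts, Bbc3). A GC box was found in 6 and an E-box in 2 (Bax and Bbc3). These counts are of genes with a match at any listed start, while the shares above are per window. The 8 members had 13 windows, as 3 of them had several starts, and 9 of the 13 windows held a GC box. The E-box of Bax begins 9 bases before the start. These are letter matches and not evidence of binding.

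Bcl2, the founding survival gene of the family (chromosome 1, 108434755 to 108610851, minus strand, mm9), was the member that set the cell types apart. Its level was 883 and 858 in spleen CD8+ cells and 596 and 543 in kidney CD8+ cells. In CD4+ cells it was 238 and 230 in kidney and 233 and 194 in spleen. All 4 CD8+ libraries lay above all 4 CD4+ libraries, with a gap between 238 and 543, and 2.2% of all tested genes had such a gap in that direction, 3.61% in the other. Over both organs Bcl2 was 3.15-fold higher in CD8+ cells (log2 fold change 1.65 ± 0.23 SE, adjusted p = 0.0142). It was the 1 member called higher, against 0.443% of all tested genes, and 0 members were called lower, against 0.858%. This comparison of cell types over both organs was added after the values had been seen. The call was lost when any 1 kidney CD8+ or spleen library was left out (adjusted p from 0.0562 to 0.135), with log2 fold changes of 1.59 to 1.72.

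Within spleen the Bcl2 difference was 2.03 ± 0.33 SE (adjusted p = 0.0525) and within kidney 1.28 ± 0.33 SE (adjusted p = 0.265). Called genes made up 0.129% (higher) and 0.231% (lower) of all genes in spleen, and 0.12% and 0.083% in kidney. With the 4 spleen libraries alone the spleen difference passed (adjusted p = 4.51e-05; 284 genes called higher and 418 lower), and with the 4 kidney libraries alone the kidney difference did not (adjusted p = 0.999984; 1 gene higher and 2 lower). The kidney difference passed without kidney CD4+ replicate 1 (adjusted p = 0.00956) or replicate 2 (adjusted p = 0.0169). Kidney CD4+ is then a lone library that is assumed to vary like the other groups, and 1005 genes were called higher and 196 lower, or 712 and 688, against 13 and 9 with all libraries. Both organs had non-overlapping groups, as had 19.8% of genes in the same direction in spleen and 13.8% in kidney. Exons of Bcl2 overlap the antisense gene D630008O14Rik, which is not in the table, and the kit keeps no strand, so reads of that gene cannot be told apart from those of Bcl2. Summed B cell markers, 4 of 6 found in the table, were higher in spleen CD8+ (978 and 881) than in spleen CD4+ cells (415 and 367.5) and closer together in kidney CD8+ (247 and 224) and CD4+ cells (182 and 220). Summed natural killer cell markers, 3 of 4 found, were higher in all CD8+ (up to 835) than in all CD4+ libraries (260 to 422). Not all of these 3 markers went that way. In spleen 2 were higher in CD8+ cells (median log2 fold change 1.03), and in kidney only 1 was (median -1.08). Summed macrophage and dendritic cell markers were lower in the CD8+ than in the CD4+ libraries of each organ. Single markers went the other way: 1 of 8 tested macrophage markers in kidney and 1 of 4 tested dendritic cell markers in spleen. The median dendritic log2 fold change was -0.28 in spleen and -2.16 in kidney. The part of these cells in the Bcl2 difference was not tested.

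The organ had a smaller measured difference in Bcl2. Kidney CD8+ cells had 570 ± 37.0 (SD) against 870.5 ± 18.4 in spleen, without overlap (24.4% of genes), a log2 fold change of -0.61 ± 0.33 SE that did not pass (adjusted p = 0.579). Kidney CD4+ cells had 234 ± 5.34 against 213 ± 27.3 (0.14 ± 0.33 SE, adjusted p = 0.946). The difference between the 2 organ effects was -0.75 with a 95% interval of -1.81 to 0.32 (adjusted p = 0.999), so an effect limited to 1 cell type was not shown.

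**Figure D1:**
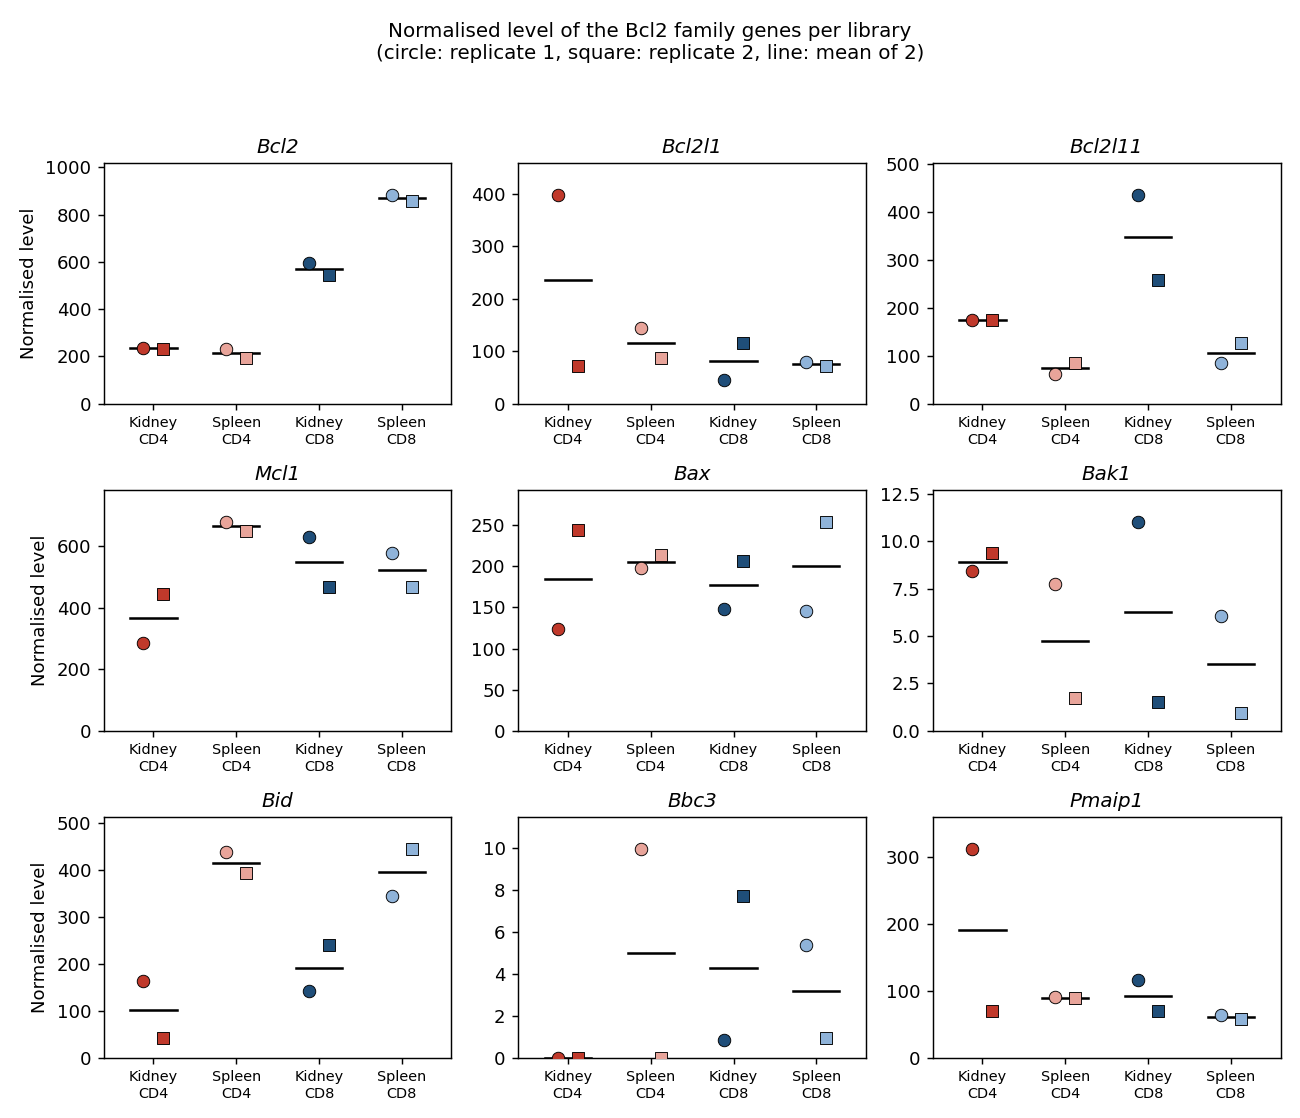
Normalised level (vertical axis, linear from 0, 1 scale per gene) of each of the 9 genes in the 8 libraries, by group; circles are replicate 1, squares replicate 2 and lines the mean of 2. Bcl2 lies at 543 or more in the CD8+ libraries and at 238 or less in the CD4+ ones, Bcl2l11 is higher and Bid lower in every kidney library than in every spleen library, and the kidney CD4+ replicates are far apart for Bcl2l1 and Pmaip1.

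Mcl1, a short-lived survival protein that T cells need at all stages (chromosome 3, 95462643 to 95467099, plus strand), had more even levels. They were 680 and 650.5 in spleen CD4+ cells, 578 and 468 in spleen CD8+ cells, 632 and 469 in kidney CD8+ cells and 285 and 446 in kidney CD4+ cells. Kidney CD4+ cells were the lowest group and did not overlap with spleen CD4+ cells, as was so for 15.6% of all genes in that direction. The difference of -0.90 ± 0.37 SE did not pass (adjusted p = 0.507), nor did the 0.06 ± 0.37 SE of CD8+ cells (adjusted p = 0.975), whose 95% interval ran from -0.79 to 0.92. Between cell types Mcl1 was higher in CD8+ than CD4+ cells of kidney and lower in those of spleen, both without overlap (13.8% and 26% of genes in those directions), and neither passed (0.61 ± 0.37 SE, adjusted p = 0.724, and -0.35 ± 0.37 SE, adjusted p = 1).

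Bcl2l1, which encodes BCL-XL, the survival protein induced by costimulation (chromosome 2, 152593052 to 152657464, minus strand), rested on 1 library. Kidney CD4+ replicate 1 had a level of 398 and replicate 2 had 71.8. Spleen CD4+ cells had 144 and 87.1, kidney CD8+ cells 45.0 and 116, and spleen CD8+ cells 79.5 and 71.6. Both spleen groups stood apart without overlap, CD8+ below CD4+, as 26% of genes did, and kidney overlapped with spleen in both cell types. The organ difference in CD4+ cells, 0.59 ± 0.82 SE (adjusted p = 0.892), became -0.64 without kidney CD4+ replicate 1. Over both organs Bcl2l1 had -0.89 ± 0.58 SE for CD8+ against CD4+ cells (adjusted p = 0.721), which passed without kidney CD4+ replicate 2 (-1.503, adjusted p = 0.0385), where 624 genes were called higher and 741 lower, against 48 and 93 with all libraries.

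Bcl2l11, which encodes BIM (chromosome 2, 127951774 to 127988283, plus strand), was higher in kidney. Its level was 174 and 175 in kidney CD4+ cells against 63.2 and 85.4 in spleen CD4+ cells. In CD8+ cells it was 436 and 259 in kidney against 86.2 and 127 in spleen. Every kidney library lay above every spleen library, as it did for 5.84% of all tested genes (16.3% within CD4+ and 26.7% within CD8+ cells). Over both cell types Bcl2l11 was 2.74-fold higher in kidney (log2 fold change 1.46 ± 0.32 SE, adjusted p = 0.0488). It was the 1 member called higher in this comparison, against 2.71% of all genes, and 0 were called lower, against 0.664%.

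The Bcl2l11 call sat at the threshold. It was lost when any 1 of the 2 kidney CD8+ and 4 spleen libraries was left out (adjusted p from 0.0682 to 0.271), when levels were rescaled to the same total (0.0831), with no filter (0.0525) and with library weights (0.0985). DESeq2 called it (adjusted p = 0.00131), and edgeR did so close to the threshold (adjusted p = 0.0466). Its direction was kept in all 15 alternatives, with log2 fold changes from 1.27 to 1.64. In single cell types the difference did not pass: 1.24 ± 0.45 SE in CD4+ cells (adjusted p = 0.402) and 1.67 ± 0.45 SE in CD8+ cells (adjusted p = 0.156), where called genes made up 0.802% (higher) and 0.157% (lower) for CD4+ and 1.21% and 0.341% for CD8+. With the 4 CD8+ libraries alone it passed in CD8+ cells (adjusted p = 0.0448; 348 genes called higher and 172 lower). A difference of the organ effects between CD8+ and CD4+ cells was not detected (0.44, 95% interval -1.03 to 1.90, adjusted p = 0.999). In that test 0% of genes were called higher or lower by limma, 362 had an unadjusted p below 0.05, edgeR called 0 and DESeq2 7 higher and 5 lower. Between cell types Bcl2l11 had 0.72 ± 0.32 SE over both organs, CD8+ above CD4+ (adjusted p = 0.510).

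RNA of kidney tubule cells was present in the kidney samples. All 12 proximal tubule markers were read in kidney, 10 to 12 per library, with summed levels of 9880 and 22610 in kidney CD4+ and 7113 and 27300 in kidney CD8+ replicates 1 and 2. In spleen the sums lay between 0 and 8.87, and Miox, Fbp1, Slc34a1 and Lrp2 were among the 9 markers at 0 in all 4 spleen libraries. In replicates 1 and 2 Bcl2l11 had 174 and 175 in kidney CD4+ and 436 and 259 in kidney CD8+ cells. The sum of 8 macrophage markers was also higher in kidney: 6519 to 6825 in CD4+ and 1787 to 2353 in CD8+ libraries, against 1679 to 2263 and 838 to 1446 in spleen. Dendritic cell markers, 6 of 8 found, summed to 13260 to 16650 in kidney CD4+, 2463 to 4283 in kidney CD8+ and 1364 to 2303 in spleen libraries. The part of any of these in the Bcl2l11 difference was not tested. In bulk samples fewer cells with a transcript and less RNA per cell cannot be told apart.

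Bid, a BH3-only protein that caspase-8 cuts to link death receptors to mitochondria (chromosome 6, 120841948 to 120866871, minus strand), had lower levels in kidney. Its level was 164 and 41.6 in kidney CD4+ cells against 438 and 393 in spleen CD4+ cells. In CD8+ cells it was 142 and 241 in kidney against 344 and 445 in spleen. Every kidney library lay below every spleen library, as it did for 3.6% of all genes (15.6% within CD4+ and 24.4% within CD8+ cells). Over both cell types the log2 fold change was -1.70 ± 0.44 SE, which did not pass (adjusted p = 0.0991). In CD4+ cells it was -2.31 ± 0.62 SE (adjusted p = 0.190) and in CD8+ cells -1.08 ± 0.62 SE (adjusted p = 0.612).

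With other settings the Bid call changed. Over both cell types it passed without kidney CD4+ replicate 1 (-2.18, adjusted p = 3.37e-04), without replicate 2 (-1.21, adjusted p = 0.0171), each of which leaves kidney CD4+ as a lone library, with DESeq2 (adjusted p = 0.00527) and with library weights (adjusted p = 0.0358). Many genes passed in those settings: 1097 higher and 1675 lower of 10625 without replicate 1, and 560 and 310 of 10590 without replicate 2, against 294 and 72 with all libraries. The difference of the organ effects was 1.23 ± 0.88 SE (adjusted p = 0.999). It was 2.21 without kidney CD4+ replicate 1 (adjusted p = 0.0279, where 670 genes were called higher and 106 lower) and 0.26 without replicate 2 (adjusted p = 0.798). Exons of Bid overlap those of Bcl2l13 on the other strand. Bcl2l13 had levels of 9.34 to 101 in kidney and 60.6 to 91.7 in spleen, all lower than Bid in the same library save in kidney CD4+ replicate 2 (69.7).

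Blood cell RNA followed the opposite course to tubule RNA. All 9 neutrophil markers were read in every spleen library, with sums of 3672 to 9376, against 0 to 29.6 in kidney, where S100a9, Ngp, Elane and Retnlg were at 0 in all 4 libraries. The 9 erythroid markers summed to 12780 to 24010 in spleen and 12.7 to 401 in kidney. Alas2 and Klf1 were at 0 in all 4 kidney libraries. The part of these cells in the Bid difference was not tested.

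Pmaip1, which encodes NOXA, a selective partner of MCL1 (chromosome 18, 66618258 to 66625204, plus strand), was high in 1 library like Bcl2l1. It had a level of 312 in kidney CD4+ replicate 1 and 69.7 in replicate 2. Kidney CD8+ cells had 116 and 69.4, spleen CD4+ cells 90.9 and 88.9, and spleen CD8+ cells 64.0 and 58.2. The organ difference over both cell types was 0.63 ± 0.49 SE (adjusted p = 0.611). In CD8+ cells kidney lay above spleen without overlap, as 26.7% of all genes did, and the difference was 0.55 ± 0.70 SE (adjusted p = 0.858). Spleen CD8+ cells lay below spleen CD4+ cells without overlap (26% of genes), at -0.55 ± 0.70 SE (adjusted p = 1). Over both organs the cell type difference was -0.63 ± 0.49 SE (adjusted p = 0.777), which passed without kidney CD4+ replicate 2 (-1.17, adjusted p = 0.0403), the setting with 624 and 741 genes called.

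Bbc3, which encodes the p53 target PUMA (chromosome 7, 16894965 to 16903554, plus strand), was close to absent. It had 0 reads in both kidney CD4+ libraries, which allows levels of up to 2.11 and 3.12 there (3 reads, counting error only). Elsewhere it had 18 and 0 reads in spleen CD4+, 1 and 10 in kidney CD8+, and 8 and 1 in spleen CD8+ cells. The replicates of each of these groups differed more than the groups did, and no difference was detectable at this depth.

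Among the effectors, Bax (chromosome 7, 52717065 to 52722268, minus strand) was the steady one. It had 123 and 245 in kidney CD4+, 148 and 206 in kidney CD8+, 197 and 213 in spleen CD4+ and 146 and 254 in spleen CD8+ cells. All 4 groups overlapped, and the organ difference over both cell types was -0.19 ± 0.34 SE (adjusted p = 0.836). Bak1, the second effector (chromosome 17, 27156755 to 27165954, minus strand), had 1 to 14 reads per library. Its highest level was 11.03, in kidney CD8+ replicate 1, beside 1.54 in replicate 2. Its exons overlap Ggnbp1 on the other strand (levels 0 to 14.7), so even these few reads cannot be assigned with certainty.

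**Figure D2:**
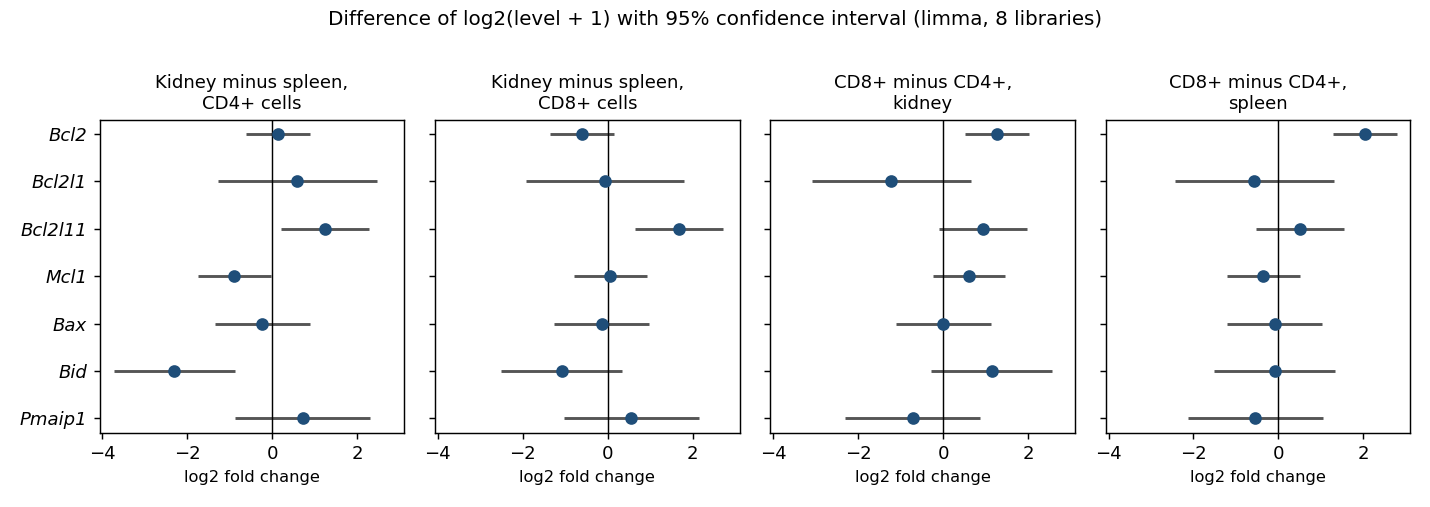
Difference in log2(level + 1) (horizontal axis) of the 7 tested members in 4 comparisons; points are limma estimates over 8 libraries and lines their 95% confidence intervals before adjustment for the number of genes. Bcl2 stands right of 0 in both comparisons of CD8+ with CD4+ cells (1.28 and 2.03), and Bcl2l11 stands right of 0 in both comparisons of kidney with spleen (1.24 and 1.67).

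Levels per kilobase of exon allowed the members to be compared with each other. In spleen CD8+ cells the order of levels per kilobase was Mcl1 (150.1 ± 22.4 SD), Bax (149 ± 57.0), Bcl2 (121 ± 2.55), Bid (111 ± 20.1), Pmaip1 (23.1 ± 1.53), Bcl2l1 (15.96 ± 1.17) and Bcl2l11 (13.3 ± 3.59). Neighbours among the first 4, and the pair of Bcl2l1 and Bcl2l11, differed by less than the larger of their SDs. In kidney CD8+ cells Mcl1 (158 ± 33.04) and Bax (132 ± 30.7) still led, followed by Bcl2 (79.2 ± 5.15), Bid (53.8 ± 19.7), Bcl2l11 (43.3 ± 15.6), Pmaip1 (35.1 ± 12.5) and Bcl2l1 (17.0 ± 10.7). In kidney CD8+ cells Mcl1 and Bax differed by less than the larger of their SDs. Bcl2l11 also differed from its neighbours Bid and Pmaip1 there by less than the larger SD.

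In spleen CD4+ cells Mcl1 (191 ± 6.0 per kilobase), Bax (153 ± 8.33) and Bid (117 ± 9.14) led. Pmaip1 (34.0 ± 0.544), Bcl2 (29.7 ± 3.80), Bcl2l1 (24.4 ± 8.51) and Bcl2l11 (9.25 ± 1.96) followed, of which Bcl2 and Bcl2l1 differed by less than the larger of their SDs. In kidney CD4+ cells Bax (137 ± 64.0), Mcl1 (105 ± 32.7), Pmaip1 (72.2 ± 64.8), Bcl2l1 (49.6 ± 48.8), Bcl2 (32.5 ± 0.743) and Bid (28.9 ± 24.3) were too variable to be ranked: in replicate 1 Pmaip1 (118) was above Bax (92.1), Bcl2l1 (84.1) and Mcl1 (81.9). Bcl2l11 was at 21.7 ± 0.0642, Bak1 at 3.7 ± 0.267 and Bbc3 had 0 reads. Lengths are unions of annotated exons, so a gene with many alternative exons appears lower than its used transcript would.

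Ratios between members within a library do not depend on its scaling, and they are given as a description without a test. The level of Bcl2 relative to that of Bcl2l11, the survival protein and its main T cell opponent, was 1.36 and 1.31 in kidney CD4+ cells and 1.37 and 2.1 in kidney CD8+ cells. In spleen it was 3.68 and 2.27 in CD4+ cells and 10.2 and 6.75 in CD8+ cells. The 4 kidney libraries lay below the 4 spleen libraries. Bcl2l11 alone already separated the organs (5.84% of genes did in that direction), so the ratio is not a separate result. The share of gene pairs with such a gap is not known. The highest kidney CD4+ value (1.36) lay next to the lowest kidney CD8+ one (1.37). Spleen CD8+ cells stood highest, with a mean log2 ratio of 3.06 ± 0.426 (SD) against 0.76 ± 0.438 in kidney CD8+ cells.

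The Bcl2 to Mcl1 ratio separated the cell types in spleen, where it was 1.53 and 1.83 for CD8+ and 0.342 and 0.298 for CD4+ cells. For kidney it was 0.944 and 1.16 in CD8+ cells and 0.832 and 0.515 in CD4+ cells, so the 2 kidney groups were closer together and still did not overlap. Bcl2 alone already separated the cell types in spleen (19.8% of genes did in that direction) and kidney (13.8%). The Bcl2 to Bax ratio was 2.64 to 6.05 in the CD8+ libraries and 0.911 to 1.93 in the CD4+ ones. The ratio of Mcl1 to Pmaip1, its selective opponent, was 5.43 to 9.04 in 7 libraries and 0.914 in kidney CD4+ replicate 1, the library with the high Pmaip1 level.

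**Figure D3:**
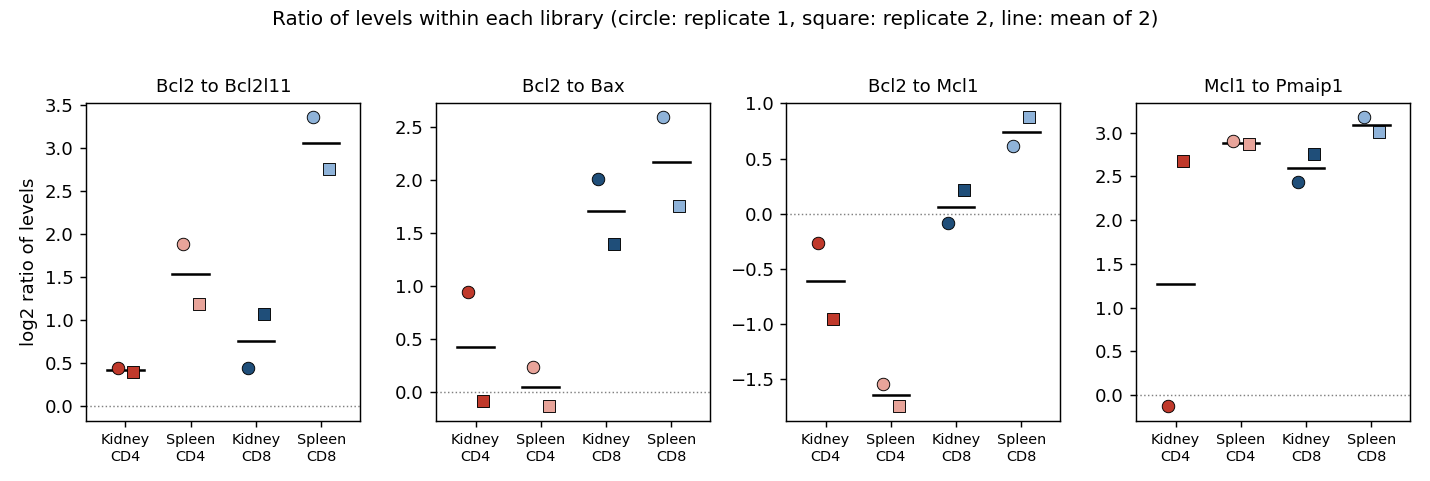
Log2 ratio of the levels of 2 members within each library (vertical axis) for 4 pairs of genes, by group; circles are replicate 1, squares replicate 2 and lines the mean of 2. The Bcl2 to Bcl2l11 ratio is lower in all kidney libraries (log2 0.40 to 1.07) than in all spleen libraries (1.18 to 3.36). Bcl2l11 alone already separates the organs.

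Members did not move as a block. Across the 8 libraries, which share groups and are no independent points, the Pearson correlations of log2 levels among the 7 tested members ranged from -0.72 (Bax and Pmaip1) to 0.72 (Bcl2l1 and Pmaip1). Bcl2l11 and Bid correlated at -0.55 and Bcl2 and Bcl2l11 at 0.26. Genes most like each member were sought among 4506 others with a mean level of at least 100. Closest to Bcl2 were Smap2 (r = 0.966), Evl (0.965), a regulator of actin, and Pabpc1 (0.961), which binds poly(A) tails. Closest to Bcl2l11 were Aga (0.980), Pmepa1 (0.976), a feedback inhibitor of TGF-beta signalling, and Dusp2 (0.976), a phosphatase of MAP kinases. Closest to Bid were Stim1 (0.988), the calcium sensor of the endoplasmic reticulum, Srprb (0.981) and Pced1b (0.981). With 8 points and 4506 genes such values say nothing of shared control.

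Of the other pro-survival genes, 3 copies of A1 were tested, and 1 was called higher in kidney, where 2.71% of all genes were. Bcl2a1a had 634 and 1304 in kidney CD4+ and 910 and 637.5 in kidney CD8+ cells, against 354 and 413 in spleen CD4+ and 228 and 221.5 in spleen CD8+ cells. It was the 1 gene of 3 tested that rose over both cell types (log2 fold change 1.503 ± 0.30 SE, adjusted p = 0.0321). Bcl2a1b, at 1.398 ± 0.32 SE (adjusted p = 0.0565), and Bcl2a1d, at 1.46 ± 0.33 SE (adjusted p = 0.0528), did not pass. The median of the 3 was 1.46, against -0.06 over all genes tested. These copies are nearly identical in sequence and the counting is not described, so how reads were split among them is uncertain and the 3 are not separate measurements. They are also expressed by myeloid cells, and macrophage and dendritic cell markers were higher and neutrophil markers lower in kidney, as given above, and that part was not tested. The Bcl2a1a call was lost when any single kidney CD8+ or spleen library was left out (adjusted p from 0.0780 to 0.175).

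No other pathway list held a called gene in either comparison over 4 against 4 libraries. Of 4 further BH3-only genes tested 0 passed for organ (median log2 fold change 0.85) or cell type (-0.13). Bnip3, a mitophagy receptor, had 1.26 ± 0.62 SE for organ (adjusted p = 0.416). Bad, which binds BCL2 and BCL-XL, had 0.44 ± 0.29 SE (adjusted p = 0.546). The BH3-only genes Bmf and Hrk were under the filter. Of 3 further family genes, Bcl2l12, Bcl2l13 and Bcl2l15, 0 passed in either comparison.

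Downstream of the family, 17 genes of the apoptosome, the caspases and mitochondrial death factors were tested and 0 passed, with medians of -0.21 for organ and 0.09 for cell type. Casp8, the caspase that cuts BID, had 589 in kidney CD4+ and 654 in kidney CD8+ cells against 1144 and 960.2 in spleen (log2 fold change -0.89 ± 0.39 SE, adjusted p = 0.351). Among 5 inhibitor of apoptosis genes 0 passed. Birc2, which encodes the ubiquitin ligase cIAP1, had 404 and 359 in kidney and spleen CD4+ cells against 146 and 127 in CD8+ cells (-1.41 ± 0.45 SE for cell type, adjusted p = 0.270). Birc3 had 382 and 365 against 99.97 and 156 (-1.38 ± 0.57 SE, adjusted p = 0.463).

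Bax, Bbc3 and Pmaip1 are known p53 targets, and 12 further genes of the p53 pathway were tested, of which 0 passed. Cdkn1a, the cell cycle inhibitor p21, had 1.75 ± 0.47 SE for organ (adjusted p = 0.110) and -1.84 ± 0.47 SE for cell type (adjusted p = 0.148). Perp, a membrane protein, had 1.79 ± 0.53 SE for organ (adjusted p = 0.153) and -1.97 ± 0.53 SE for cell type (adjusted p = 0.178). Mdm4, a p53 inhibitor, had -0.82 ± 0.27 SE for organ (adjusted p = 0.196). Ccng1, cyclin G1, was at 659 and 530 in kidney and spleen CD4+ cells against 296 and 242 in CD8+ cells (-1.16 ± 0.25 SE, adjusted p = 0.0866). Trp53inp1 had -1.70 ± 0.41 SE for cell type (adjusted p = 0.132). List medians were -0.22 and -0.09.

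Among cytokine receptor and signalling genes upstream of the family, 0 of 13 tested passed in either comparison. Foxo1, a transcription factor whose family is known to drive Bcl2l11, had 356 and 543 in kidney CD4+ and CD8+ cells and 488 and 529 in spleen. Foxo3 stayed under the filter, with a highest level of 8.33. Il7r, the receptor for interleukin 7, the cytokine that sustains Bcl2, had 1572 and 1299 in kidney CD4+, 536 and 903 in kidney CD8+, 896 and 822 in spleen CD4+ and 986 and 1269 in spleen CD8+ cells. In spleen CD8+ cells lay above CD4+ cells without overlap (19.8% of genes), and in kidney they lay below them without overlap (14.1%). The part of Il7r in the Bcl2 difference was not tested. Pim2, a survival kinase, had 1.42 ± 0.38 SE for cell type (adjusted p = 0.173). Of 6 tested genes known for turnover of MCL1 or BIM, 0 passed.

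**Figure D4:**
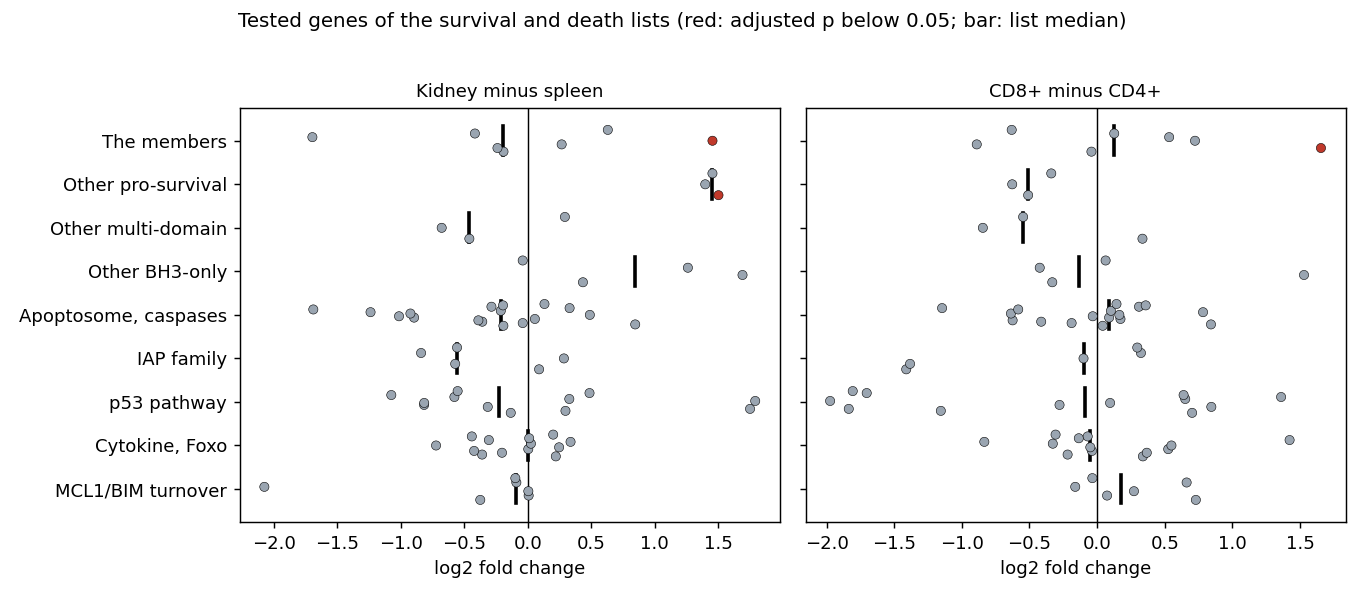
Log2 fold change (horizontal axis) of every tested gene of 9 lists over both cell types (left) and over both organs (right); red points have an adjusted p below 0.05 and bars are list medians. The red points are Bcl2l11 (1.46) and Bcl2a1a (1.503) on the left and Bcl2 (1.65) on the right.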

How the data were processed

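Per the labels, library construction (8 samples) used the SMART-Seq v4 kit, which does not mark strand. The submitters' processing notes list STAR 2.5.3, TopHat2 2.1.0 and the mm9 build. The counting tool and gene models were not given in the sources used here. Normalised signal is what the deposited table holds, in 1 column per library. All values were whole multiples of 1 step per library (100%, tolerance 1e-06), which gave back the reads used for count tests. R 4.3.3 was used. Tests were 2-sided, by limma 3.58.1 with an intensity trend on log2(level + 1) and 1 mean per group; they were tried on simulated data. The alternatives were edgeR 4.0.16 and DESeq2 1.42.0 on those reads (for organ over both cell types 272 higher and 64 lower, and 595 and 194, against 294 and 72 by limma), a pseudocount of 10, no filter, rescaled totals, library weights, a replicate block, the compared libraries alone and each library left out.

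Positions and exon lengths of genes are from GENCODE vM1 (mm9). Members and lists were chosen with earlier results of these data known. The named genes were all members, up to 4 genes per list with the smallest adjusted p, and the 3 genes most correlated with a member; Foxo1, Foxo3, Il7r, Bmf and Hrk were added after their values were seen.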

Additional observations from a re-analysis of the deposited data

How the results depend on the processing

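Numbers of members called moved with the setting. For organ over both cell types 1 was called, 0 with no filter, 0 with rescaled totals, 2 with DESeq2 and 0 to 2 with a library left out. For organ in CD4+ cells it was 0, but 1 with DESeq2 (Bid) and 0 to 1 with a library left out. For organ in CD8+ cells it was 0, but 1 (Bcl2l11) with library weights, DESeq2 or the compared libraries alone, and 0 to 1 with a library left out. For the difference of organ effects it was 0, and 0 to 1 with a library left out (Bid). For cell type it was 0 in kidney (1 with DESeq2, 0 to 3 with a library left out) and 0 in spleen (1, Bcl2, with pseudocount 10, library weights, DESeq2 or the compared libraries alone, 0 to 1 with a library left out). Over both organs, a comparison added after seeing the data, it was 1, and 0 to 3 with a library left out. Where the number rose with a library left out, it was a kidney CD4+ library, and more genes of all kinds were then called. This leaves that group as a lone library and drops the least alike pair from the spread; the spread of the other groups then stands for it. Rescaling totals moved the median of all genes from -0.06 to -0.17 for organ and from -0.02 to -0.18 for cell type over 4 against 4 libraries.

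Sign changes touched values that were not called with all libraries. With rescaled totals Bcl2 had -0.01 (-0.00696) for organ in CD4+ cells, Mcl1 -0.02 (-0.0162) for organ in CD8+ cells and -0.04 (-0.0369) for cell type over both organs, and Bax -0.13 (-0.126) for cell type in kidney. With edgeR and DESeq2 Bcl2l1 had 0.0537 and 0.0769 for organ in CD8+ cells, and Bax -0.0625 and -0.104 for the difference of organ effects and -0.0708 and -0.101 for cell type in kidney; DESeq2 gave Bax 0.00339 for cell type in spleen. With a library left out, the ranges that crossed 0 were for Bcl2l1 -0.35 to 0.88 for organ over both cell types, -0.64 to 1.82 for organ in CD4+ cells, -0.73 to 0.62 for organ in CD8+ cells, -1.88 to 0.58 for the difference of organ effects, -2.44 to 0.0133 for cell type in kidney; for Bax -0.44 to 0.0548 for organ over both cell types, -0.73 to 0.25 for organ in CD4+ cells, -0.54 to 0.25 for organ in CD8+ cells, -0.40 to 0.59 for the difference of organ effects, -0.49 to 0.50 for cell type in kidney, -0.49 to 0.31 for cell type in spleen, -0.29 to 0.20 for cell type over both organs; for Pmaip1 -0.36 to 1.79 for organ in CD4+ cells, -1.24 to 0.91 for the difference of organ effects, -1.79 to 0.36 for cell type in kidney; for Mcl1 -0.15 to 0.28 for organ in CD8+ cells, -0.0345 to 0.29 for cell type over both organs; for Bid -0.27 to 0.10 for cell type in spleen. The Bcl2, Bcl2l11 and Bcl2a1a calls kept their direction in all 15 alternatives each.

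No effect of the replicate number shared by the groups was seen: differences between replicates 1 and 2 correlated between groups at -0.155 to 0.056. The labels do not say whether libraries with the same replicate number share mice, and such correlations cannot settle it. With a replicate block 0 members were called for organ over both cell types in place of 1 (Bcl2l11, adjusted p = 0.0946), Bcl2a1a had an adjusted p of 0.0623, and Bcl2 stayed called for cell type over both organs (adjusted p = 0.0369). Depth limits Bak1 and Bbc3, with 0 to 18 reads per library.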
